A study of Bos taurus with 8 samples.

Results

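Neutrophils in fresh bovine muscle were the 51 cells of the muscle library that carry this name in the deposited annotation, out of 4395 annotated cells in that library and 36129 in the 5 libraries of the study. They were 1.16% of the cells, 7.94% of the 642 leukocytes and 0.471% of the unique molecular identifiers (UMIs) of the annotated muscle cells. The library, Timepoint 1, held uncultured cells of the semitendinosus of 10 Belgian Blue cattle, 5 calves (donors 2, 4, 5, 7 and 10, 4 female and 1 male) and 5 adults (donors 1, 3, 6, 8 and 9, 3 female and 2 male), in equal ratios. Muscle was digested with collagenase for 1 h at 37 °C, passed through 100 µm strainers, treated with a lysis buffer for red blood cells and passed through 40 µm strainers. Cells of all donors were pooled into a single Chromium 3′ library, and each barcode was given to a donor from its genotype. The pool is thus 1 library with no second library of fresh muscle, and the donor animals are its replicates. A 3′ library counts molecules of a gene by 1 end, and levels are given here as UMIs of a gene per 10000 UMIs of all genes.

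Neutrophils are short-lived granulocytes that leave the bone marrow for blood and enter tissue along gradients of chemokines, complement fragments and leukotrienes. They store preformed antimicrobial proteins in primary (azurophil), secondary (specific) and tertiary granules, whose genes are mostly transcribed in marrow precursors, and mature cells carry little RNA. In circulation they express receptors for interleukin-8 and granulocyte colony-stimulating factor, and a cytosol rich in the calcium-binding alarmins S100A8, S100A9 and S100A12. In skeletal muscle they are rare at rest and enter early after injury.

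The deposited name was set beside markers. The name was made from the same expression values, so the presence of neutrophil markers describes the cells and is no independent check. Each of the 51 cells held a UMI of S100A12, 50 held S100A8 or S100A9, and 26 held PTPRC, the common leukocyte antigen CD45. Of 11 neutrophil markers (S100A8, S100A9, S100A12, CSF3R, CXCR1, CXCR2, MEFV, NFE2, TCN1, IL1R2 and MGAM) a cell carried a median of 8, from 3 to 10, and 49 of 51 cells carried at least 4. At least 4 were found in 14 of 403 monocytes/macrophages, 1 of 188 lymphocytes and 0 of 3753 cells that were not leukocytes (0 allows up to 0.0982%, exact binomial interval). Of the 11 markers IL1R2 and MGAM were rare in the neutrophils, with 5 UMIs each, in 7.84% and 9.8% of cells. No UMI was seen of the 7 T and NK cell markers, the 5 B cell markers, or the 3 eosinophil, 3 platelet and 4 red cell markers present in the gene table. Of the 8 monocyte/macrophage markers seen in monocytes/macrophages 5 (CD14, CSF1R, CD163, MRC1 and C1QB) were at 0 and C1QA and C1QC had 1 UMI each. The remaining marker of this list, MARCO, had no UMI in any annotated type. Mast cell and basophil markers had 2 UMIs, in 1 cell. Only CD68, a lysosomal protein of phagocytes, was frequent (31 UMIs in 19 cells, 3.14 against 2.96 per 10000 in monocytes/macrophages).

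Neutrophils were the shallowest annotated cells. They held a median of 1410 UMIs (605 to 11906) and 577 genes, against 6108 UMIs and 2039 genes in monocytes/macrophages, 4.33-fold more UMIs. The next shallowest type was glial cells with 2425, and the median of the library was 4184. Within donors the median of the neutrophils was 0.135 to 0.44 times that of the monocytes/macrophages, lower in 9 of 9 donors with a neutrophil. Drawn down to 750 UMIs each, 47 neutrophils showed a median of 394 genes, against 473 in monocytes/macrophages and 485 over all cells. Lymphocytes, at 405, and myocytes, at 425, were closer. The quality control of the study set limits on UMIs and genes that were common to all types, and the smallest annotated cell had 551 UMIs, so neutrophils with fewer were not included.

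**Figure D1:**
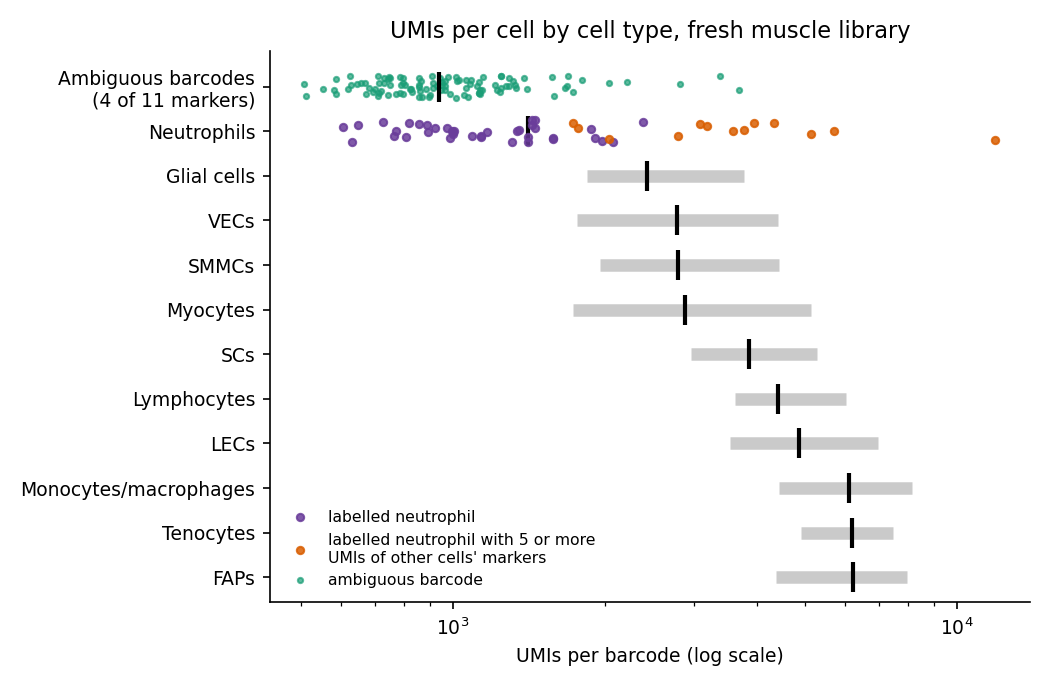
UMIs per barcode on a log axis for each annotated type of the muscle library, and for ambiguous barcodes with at least 4 of 11 neutrophil markers. Bars run from the first to the third quartile, black ticks are medians, and points are single barcodes, shown for neutrophils and ambiguous barcodes only. The neutrophils, at a median of 1410, lie left of all other types, and the 13 labelled cells with at least 5 UMIs of other cells' markers lie at 1731 UMIs or more.

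Some of the labelled cells also held RNA of another cell. Of the 51, 13 carried at least 5 UMIs of 16 markers of other muscle cells, namely satellite cells (SCs), endothelium, smooth muscle and the matrix-producing fibro-adipogenic progenitors (FAPs). Most of these UMIs were from FAP markers in 7 of them, from endothelial markers in 3 and from smooth muscle markers in 3. The deepest, of donor 4, had 11906 UMIs of which 243 were of DCN, the matrix proteoglycan decorin. All 13 also had at least 4 neutrophil markers. They came from 7 donors, had a median of 3589 UMIs and carried 53.7% of all neutrophil UMIs, while the other 38 cells had a median of 1114 and at most 2377. At least 5 such UMIs were found in 12 of 403 monocytes/macrophages. Genotypes cannot show a doublet of cells of the same donor, no other doublet caller was run, and whether these barcodes were doublets or held free RNA was not tested. Pooled levels in neutrophils below are those of all 51 cells, and values in the 38 cells without such markers are given beside most of the named genes whose call differs there. Muscle fibre markers had 139 UMIs, of which 46 and 22 were in single cells.

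Summed over cells, neutrophils held 98772 UMIs, monocytes/macrophages 2581925 and all annotated cells together 20977722. A gene was considered where the higher of the levels compared gives at least 10 UMIs at the depth of the neutrophils, and it was called at a 4-fold difference. A gene at a low level in one group could be considered only through the other, and the shares called depend on this. The annotation was made from the same expression values, so these folds are a description with no test. The intervals are exact 95% intervals from the split of UMIs and cover counting error only. Against monocytes/macrophages, 422 of 2100 genes were called higher in neutrophils (20.1%) and 199 lower (9.48%). Against all other cells, 358 of 2143 were called higher (16.7%) and 121 lower (5.65%). With cells weighted equally, 421 of 2021 genes were higher and 373 lower than in monocytes/macrophages. Against all other cells they were then 459 and 504 of 2216, so the balance of higher and lower genes depended on the weighting. Of the 422 higher genes 102 lay higher in each of the 7 donors with at least 3 neutrophils. Of the 199 lower genes 155 lay lower in each. The matching shares of all 2100 considered genes are not given, so these counts stand without a background. The same holds for donor ranges without overlap, which are stated below for selected genes only. Without the 13 cells with other markers, 283 of 1039 considered genes were called higher against monocytes/macrophages (27.2%), 209 of them among the 422, and 253 lower (24.4%). Against all other cells 362 of 1109 were then higher and 330 lower. A fold against 0 UMIs takes 3 counts in their place and is written as "at least", with counting error of the other group not included. Genes between 3-fold and 4-fold higher numbered 97, and those between 4-fold and 5-fold 54.

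Of the genes that were higher in all 7 donors, the largest folds against monocytes/macrophages were those of CXCR1, a receptor of interleukin-8 (1503-fold, 407 to 12560), TGM3, a transglutaminase (1470.4-fold, 566 to 5443), TCN1, the vitamin B12 binder haptocorrin of secondary granules (988-fold, 416 to 3078), ISG20, an interferon-induced exonuclease (958-fold, 319.5 to 4719), and SDS, serine dehydratase (637-fold, 317 to 1497). The monocytes/macrophages held 2, 4, 5, 3 and 8 UMIs of these genes, which sets the width of the intervals. They were followed by the glycoprotein CD24 (400.1-fold, 262 to 639), IFIT1 and IFIT3 (below), RUBCNL, a regulator of autophagy (112-fold, 84.6 to 149), CCN3, NFE2, a transcription factor (97.7-fold, 61.1 to 162), CSF3R, the receptor of granulocyte colony-stimulating factor (86.9-fold, 61.4 to 125), ANKRD22, LMNB1, a nuclear lamin (54.3-fold, 36.5 to 82.3), and S100A9. CCN3, a matricellular protein, stood apart from the rest. It had 104 UMIs of which 71 were in a single cell, and its level was higher in FAPs (27.7 per 10000) than in neutrophils (10.5). Its fold fell from 109 to 2.26 without the 13 cells with other markers. Against all other cells TCN1, SDS, TGM3 and CXCR1 led too, and S100A8 (358-fold, 322 to 398), OSM (270.3-fold, 215 to 339.6) and S100A12 (231-fold, 216 to 246) came among the first 15.

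The genes differed in how frequent they were at equal depth. In cells drawn down to 750 UMIs, SDS was seen in 85.1% of neutrophils, RUBCNL in 83%, TCN1 in 80.9%, CSF3R in 72.3% and CXCR1 in 66%, and in no other type in more than 0.248%, 2.73%, 0.248%, 0.744% and 0.0813%. Others were seen in fewer neutrophils, LMNB1 in 46.8%, ANKRD22 in 25.5% and CCN3 in 17%, and CCN3 was seen in 58% of lymphatic endothelial cells (LECs). CD24 was seen in 68.1% of neutrophils and 9.88% of LECs. Undrawn, the shares of the first 5 in neutrophils were 98%, 92.2%, 86.3%, 96.1% and 86.3%. The shares in types that should lack the genes, where free RNA would show, were at most 2.68% for RUBCNL and 0.325% for SDS among types that are not leukocytes, although their cells were deeper.

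**Figure D2:**
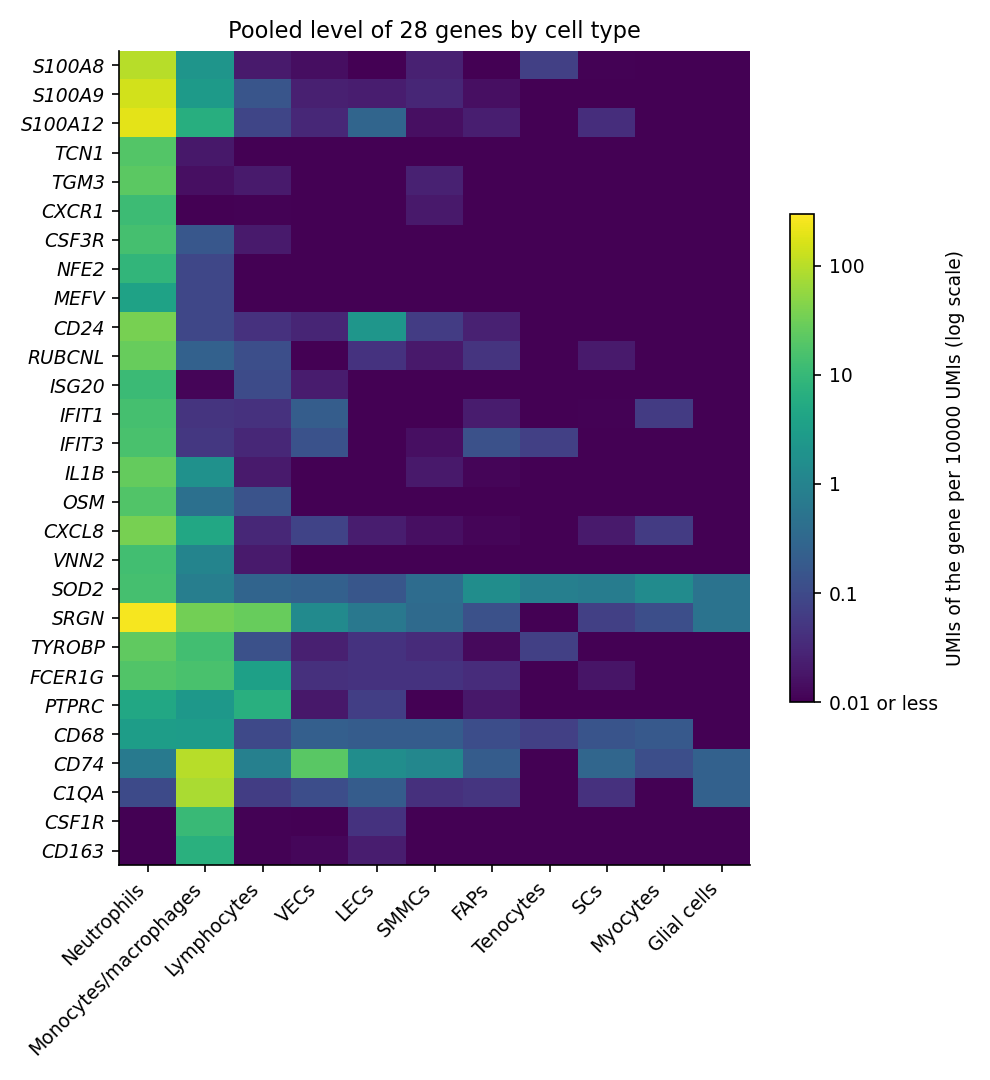
Pooled level (UMIs per 10000 UMIs, colour on a log scale) of 28 genes in the 11 annotated types of the muscle library. The upper rows, from S100A8 to VNN2, are brightest in the neutrophil column, and the rows CD74, C1QA, CSF1R and CD163 are brightest in the monocyte/macrophage column.

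The alarmins S100A8, S100A9 and S100A12, calcium-binding proteins of the neutrophil cytosol that are released as danger signals, made up 438 per 10000 UMIs of the neutrophils, 11.4 of the monocytes/macrophages and 1.48 of all other cells. Of the alarmin UMIs in monocytes/macrophages 95% (2803 of 2951) lay in the 14 of 403 cells that had at least 4 neutrophil markers, a rule that uses these genes, and the other 389 cells stood at 0.605 per 10000. Over donors the level of S100A8 in neutrophils ranged from 19.5 to 235 (median 78.7), lowest in donor 10 and highest in donor 1, and in monocytes/macrophages from 0 to 11.4. S100A9 ranged from 47.2 to 379 (median 133) against 0 to 14.3, and S100A12 from 50.9 to 437 (median 149.7) against 0.037 to 28.1. The ranges of the 2 cell types did not overlap for any of the 3 genes. In donor 1, highest for all 3, a single cell held 122, 203 and 235 UMIs of S100A8, S100A9 and S100A12. The other 2 cells of donor 1 held 4 to 24 of each. In donor 10, lowest for all 3, the 2 deepest cells (4323 and 5134 UMIs) carried other cells' markers. The pooled folds were 46 for S100A8 (41.4 to 51.2), 52.5 for S100A9 (48 to 57.5) and 29.7 for S100A12 (27.8 to 31.7). These genes were among the markers of the type, so their direction is no finding. Within the type the alarmins were uneven, from 0.0557% to 23.6% of a cell's UMIs (median 3.77%). In donor 4, with the most cells, they ran from 0.126% to 19.4%, and in the 6 cells of donor 10 from 0.208% to 2.2%. The lowest value of each of these ranges was in a cell with other markers, and without such cells the lowest were 0.502% over all donors, 1.27% in donor 4 and 0.661% in donor 10.

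Granule proteins are listed by the granule that holds them. Of the primary granule list 7 genes were in the gene table, and 4 of them (MPO, PRTN3, AZU1 and PRSS57, named after their values were seen) had no UMI, which allows up to 0.304 per 10000. Only CD63, a membrane protein of granules and lysosomes in many cells, reached 10 UMIs, at 5.26 against 12.3 in monocytes/macrophages. In the 38 cells without other markers CD63 stood at 1.09, 11.2-fold lower, and was called there. Of 15 secondary granule genes 5 were considered and 4 called higher, beside a background of 20.1%, and 8 were at 0, among them all 6 cathelicidin genes (CAMP and CATHL2 to CATHL6). Reads shared by near-identical genes, as those of this family are, are given to none of them in such counting, so these zeros are uncertain. Of the 4 called, TCN1 lay higher in 7 of 7 donors, LCN2 in 3, CHI3L1 in 3 (lower in 4) and PTX3 in 1 (lower in 3). TCN1 was the one found in most cells (189 UMIs in 44 of 51 cells, from 3.7 to 26.6 (median 23.7) per 10000 over donors). LCN2, the siderophore binder lipocalin 2, had 49 UMIs in 6 cells, with up to 23 in a single cell, and CHI3L1, a chitinase-like protein, 18 in 11. PTX3, the soluble recognition protein pentraxin 3, fell from 3.95 to 1.31 per 10000 without the 13 cells, too few UMIs for a call, and the 13 UMIs of HP (haptoglobin) were all in 1 cell (7.33-fold and called in the 38 cells). Of the 4 considered tertiary granule and secretory vesicle genes 1 was called higher. VNN2, a surface amidohydrolase of neutrophils, was 12.7-fold higher (10.2 to 15.7, 7 of 7 donors) and found in 80.4% of cells. FCN1, the lectin ficolin 1, stood at 7.29 against 2.29 (5.53-fold higher and called in the 38 cells) and CFD, complement factor D, at 20.6 against 48.6.

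Receptors that guide neutrophils were measured next. Of 9 considered chemoattractant receptors 3 were called higher than in monocytes/macrophages (CXCR1, CXCR2 and CCR1) and 2 lower, CXCR4 and C3AR1, against backgrounds of 20.1% and 9.48%. In the 38 cells without other markers 5 of 8 considered were called higher, where 27.2% of all genes were. C3AR1 had no UMI in any of the 51 cells and was at least 8.35-fold lower, a bound that the fewer UMIs of the 38 cells bring to 3.87. CXCR1 ranged from 4.63 to 21.3 (median 7.4) per 10000 over donors and 0 to 0.129 in the monocytes/macrophages of the same donors. CXCR2, the second receptor of interleukin-8, had 12 UMIs in 11 cells and none in monocytes/macrophages (at least 105-fold higher, exact 95% interval from 72.6). CCR1, a receptor of CCL chemokines, was higher by 6.54-fold (4.88 to 8.64, 7 of 7 donors). The receptor of complement C5a, C5AR1, lay under the 4-fold line at 12.4 against 3.69 (3.35-fold, 2.75 to 4.04) and above it in the 38 cells (5.15-fold). CXCR4, the receptor that holds neutrophils in marrow, had 9 UMIs and was 5.66-fold lower (2.97 to 12.4), and 3.37-fold lower in the 38 cells, where its call was lost.

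Among 8 considered cytokine receptors 3 were called higher, where 20.1% of all genes were, and none lower. In the 38 cells without other markers it was 5 of 8, against 27.2%. CSF3R ranged from 7.4 to 18.2 (median 13.9) per 10000 over donors against 0 to 0.867, and IFNAR1 and IFNAR2, the chains of the type I interferon receptor, stood at 2.73 against 0.48 (5.69-fold, 3.61 to 8.69) and 2.02 against 0.194 (10.5-fold, 5.9 to 17.9), each higher in 6 of 7 donors. The interferon gamma receptor chain IFNGR2 (2.23 against 0.565) and the tumour necrosis factor receptor TNFRSF1A (5.37 against 1.45) were just under the 4-fold line, and over it in the 38 cells (6.18-fold and 4.96-fold). Of 8 considered adhesion genes 3 were called higher and 1 (FERMT3, 2.6-fold lower and not called in the 38 cells) lower, with the same backgrounds. SELPLG, a ligand of P-selectin, stood at 6.18 against 1.48 and CD24 at 35.6 against 0.0891. ITGB2, the shared integrin beta chain of leukocytes, was not called (1.42 against 2.29), and ITGAM, its partner in the receptor Mac-1, had no UMI in neutrophils and 108 in monocytes/macrophages (0.418 per 10000), under the level at which a gene was considered.

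Cytokines went in both directions. Of 15 considered, 6 were called higher in neutrophils (IL1B, IL1RN, OSM, CXCL8, LTB and TNFSF14) and 6 lower, 6 of 15 against 20.1% of all genes and 6 against 9.48%. IL1B, interleukin-1 beta, was found in 49 of 51 cells and ranged from 13.6 to 43.2 (median 25) per 10000 over donors against 0.464 to 4.06 in monocytes/macrophages, with no overlap. OSM, the interleukin-6 family cytokine oncostatin M, ranged from 4.7 to 38.7 (median 17.6) against 0.286 to 1.68, also without overlap. How frequent such separation was among all considered genes is not given. CXCL8, the chemokine interleukin-8 that attracts neutrophils, ranged from 7.4 to 46.7 (median 26.2) against 0 to 12.3, where donor 7 lay within the range of the monocytes/macrophages. Its pooled fold was 7.38 (6.55 to 8.31), and those of IL1B and OSM were 13.9 (11.9 to 16.2) and 40 (31.5 to 50.9). The interleukin-1 receptor antagonist IL1RN stood at 5.87 against 1.05, LTB (lymphotoxin beta) at 4.66 against 0.159 and TNFSF14 (LIGHT) at 4.56 against 0.0891. On the other side CXCL3, an attractant of granulocytes, stood at 3.75 against 24.3 (6.49-fold, 4.71 to 9.23 lower). The monocyte attractant CCL2 stood at 1.11 against 10.2. Most of their neutrophil UMIs lay in cells with other markers, and without the 13 cells CXCL3 fell to 0.218 and CCL2 to 0. TNF had no UMI in neutrophils (named after its value was seen), against 1.32 per 10000 in monocytes/macrophages (at least 4.34-fold lower, exact 95% interval from 3.51, and at least 2.01-fold in the fewer UMIs of the 38 cells).

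Genes of microbial recognition were measured at lower levels. Of 8 considered, LY96, the co-receptor of TLR4 (6.07 against 1.29), the adaptor MYD88 (5.87 against 0.809) and MEFV, the inflammasome sensor pyrin (3.75 against 0.0891), were called higher and CD14 and PYCARD lower, 3 and 2 of 8 beside 20.1% and 9.48% of all genes. TLR4, the receptor of lipopolysaccharide, stood at 3.85 against 0.968 (3.97-fold, 2.75 to 5.61), and was called in the 38 cells (7.22-fold). CD14, which passes lipopolysaccharide to TLR4, had no UMI in neutrophils and 3.79 per 10000 in monocytes/macrophages (at least 12.5-fold lower). Of the 5 considered subunits of the NADPH oxidase, which makes superoxide in phagocytes, NCF1 was called higher (3.54 against 0.697), CYBA stood at 8.5 against 8.82 and the catalytic subunit CYBB at 1.11 against 3.26 (lower in 7 of 7 donors). Of 13 considered Fc receptor, complement and ITAM genes, FCAR, the receptor of immunoglobulin A (at least 139-fold higher, 16 UMIs and none in monocytes/macrophages), CD55, which protects cells from complement (10.6-fold, 8.39 to 13.2), and the kinase FGR were called higher, 3 of 13 beside 20.1%. The adaptors TYROBP (24.3 against 13) and FCER1G (18.6 against 15.6), which all myeloid cells share, were not called. The Fc gamma receptors FCGR1A, FCGR2B and FCGR3A held 0, 3 and 8 UMIs and were called lower, as was the complement receptor CR2, 4 of 13 beside 9.48%. FCGR2B was 2.86-fold lower in the 38 cells and not called.

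Among 10 considered myeloid transcription factors 3 were called higher and none lower, beside 20.1% and 9.48% of all genes. NFE2 was found in 45 of 51 cells, MXD1, an antagonist of MYC, stood at 4.15 against 0.167 (24.9-fold, 15.8 to 39.2) and TRIB1, a pseudokinase that directs the degradation of C/EBP alpha, at 6.58 against 1.02. SPI1 (PU.1), needed in all myeloid cells, stood at 4.86 against 3.88 (1.25-fold, 0.916 to 1.67). CEBPE and GFI1, factors of granulocyte precursors, and IRF8 and MAF, factors of macrophages, were the 4 members with no UMI (named after their values were seen). Of 12 considered survival and NF-kB genes SOD2, the manganese superoxide dismutase (14.5 against 0.821, 17.6-fold, 14.2 to 21.9), and PLAUR, the urokinase receptor (38 against 3.68, 10.3-fold, 9.14 to 11.7), were called higher, 2 of 12 beside 20.1%, and lay higher in 7 of 7 donors. TNFAIP3 and GADD45B were called lower, but not in the 38 cells (2.81-fold and 3.81-fold lower), and MCL1, on which neutrophil survival depends, stood at 14 against 7.54. Of the lipid mediator list only ALOX5AP, the partner of 5-lipoxygenase, reached 10 UMIs (6.68 against 1.96, and 4.67-fold higher and called in the 38 cells), and LTC4S, with 1 UMI, was called lower.

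Antigen presentation genes separated neutrophils from monocytes/macrophages in the other direction. The MHC class II list held 15 UMIs in neutrophils, 1.52 per 10000 against 186, 122-fold lower (74.2 to 219). All 6 considered members were called lower, against 9.48% of all genes. CD74, the invariant chain, had 7 UMIs, and over donors it ranged from 0 to 3.87 per 10000 in neutrophils and from 75.2 to 141 in monocytes/macrophages. With the complement C1q chains C1QA (792-fold, 142 to 31287), C1QB (at least 136-fold) and C1QC (482-fold, 86.4 to 19020.4), the coagulation factor F13A1 (231-fold, 41.5 to 9132) and the macrophage folate receptor FOLR2 (97.9-fold, 17.5 to 3867), it was among the 15 largest folds of genes that lay lower in neutrophils in every donor. CD74 was detected in at most 92.7% of the cells of a type that is not leukocytic (vascular endothelial cells, 21.7 per 10000).

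Interferon-stimulated genes were high in neutrophils as a list. Of 32 annotated members, 16 reached 10 UMIs in neutrophils, and 10 of the 16 considered were called higher than in monocytes/macrophages and 1 lower, beside 20.1% and 9.48% of all genes, with a median fold of 6.37 against 1.13 over all 2100 genes. Each of the 10 was too low in monocytes/macrophages to be considered there, and was considered only through its neutrophil level. The list was also chosen with earlier results of these data known, so its count is a description. The list held 107 per 10000 in neutrophils, 15.8 in monocytes/macrophages and 9.03 in all other cells, and 178 in the 38 neutrophils without other markers. IFIT1 and IFIT3, which bind viral RNA and join in 1 complex, were found in 35 and 38 of 51 cells. IFIT1 ranged from 1.57 to 25.5 (median 13.6) per 10000 over donors and 0 to 0.148 in monocytes/macrophages, and IFIT3 from 8.63 to 20.2 (median 12.3) and 0 to 0.162. Neither overlapped, but the share of all considered genes for which this holds is not given. ISG20 was found in 42 cells, and RNA of MX1, an antiviral GTPase, stood at 2.43 against 0.352 in 11 cells. IFI6, a mitochondrial antiviral protein, was the gene called lower (1.92 against 8.83). The regulator IRF7 stood at 1.42 against 0.139 (10.2-fold, 5.06 to 19.3).

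Other members of the list were carried by a few cells. ISG15, a ubiquitin-like protein, had 282 UMIs in only 13 of 51 cells, and the 5 cells with most, of donors 3, 4, 4, 10 and 10, held 79.4% of them, between 37 and 53 each. Donors 1, 2, 6 and 8 had none. IFIT2 had 81% of its 100 UMIs in 5 of 18 cells, while IFIT1 and IFIT3 had 42.1% and 42.4%. Over the 51 cells the list took between 0.0588% and 10.9% of a cell's UMIs, with a median of 0.616% and under 1% in 34 cells. In 4 cells, 2 of donor 4 and 2 of donor 10, it took over 5%, and 1 cell lay between 3% and 7%. The 5% line was drawn after the values were seen. No monocyte/macrophage of 403 and no cell of 3753 that were not leukocytes passed 5% (highest 2.21% and 4.99%). Drawn down to 750 UMIs, 4 of 47 neutrophils and 1 of 3699 cells that were not leukocytes passed it. The other 21 cells of donor 4 and the other 4 of donor 10 lay under it, so cells of the same animal and library differed. None of the 4 cells held 5 UMIs of other cells' markers, and their median of 1239 UMIs stood beside 1411 in the rest and 1048 in the rest without other markers. Their alarmin level was 258 per 10000, against 805 in the other 34 cells without other markers, and CXCL8 stood at 106 against 56.1 and IL1B at 75.1 against 36.5. Within donors, again without cells with other markers, the order of the alarmins was not the same, with 336 against 868 in the rest of donor 4 and 169 against 75.5 in the other 2 cells of donor 10. CXCL8 stood at 83.9 against 68.2 in donor 4 and 130.0 against 81.8 in donor 10. In the ambiguous barcodes described below IL1B was 37.7 in the 6 over 5% and 39.8 in the others, and CXCL8 86.3 and 48.9. With 4 cells of 2 donors no test was made.

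**Figure D3:**
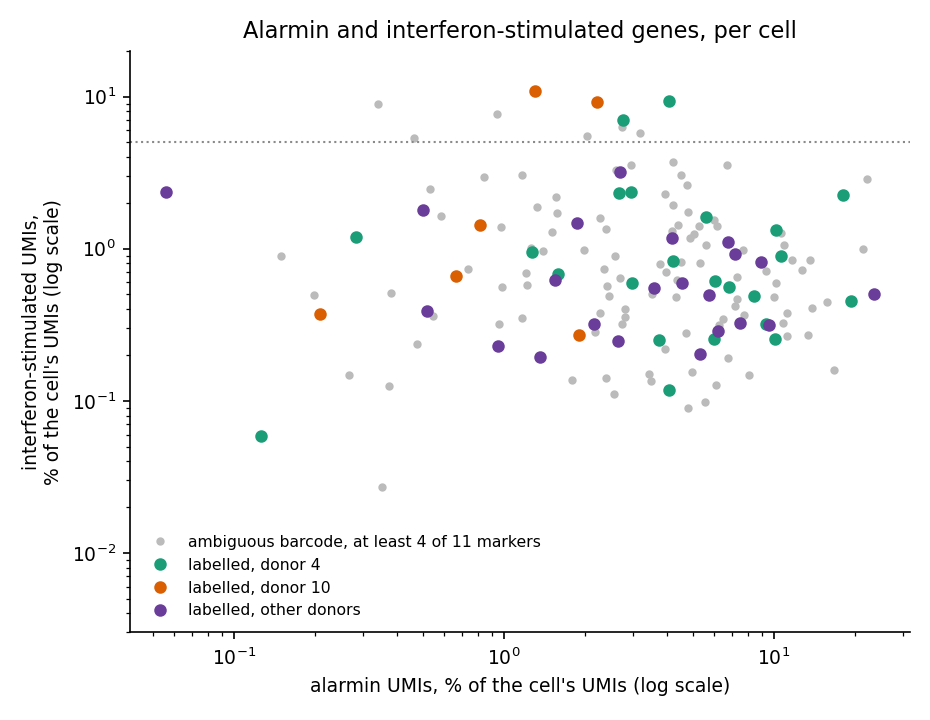
Share of a cell's UMIs from the interferon-stimulated list (vertical) and from the 3 alarmins (horizontal), both in percent on log axes, for the 51 labelled neutrophils and the 106 ambiguous barcodes with at least 4 neutrophil markers. Above the dotted 5% line lie 4 labelled cells of donors 4 and 10 and 6 ambiguous barcodes, each with at most 4.1% alarmins, while shares of up to 23.6% occur below it.

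The lists of general cell function differed less, with 1 exception. Cytosolic ribosomal protein genes, which make up much of the RNA of growing cells, took a median of 3.3% of a neutrophil's UMIs and 2.63% (1.24% to 6.06%) in the 38 cells without other markers, against 16.2% in monocytes/macrophages and 33.2% in lymphocytes. In the 13 cells with other markers the median was 9.78%. Pooled, the list stood at 752 per 10000 against 1734, with 1 of 78 genes called lower (9.48% of all genes were) and a median fold of 0.438. In the 38 cells it stood at 278, a fold of 0.16, with 64 of 76 considered genes called lower against 24.4% of all genes. A scale in which ribosomal transcripts are few lifts the level of all other genes, and the median fold over all considered genes was 1.13. Mitochondrially encoded genes stood at 256 against 346, with none of 11 called, beside 20.1% and 9.48%.

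Of 27 considered actin and motility genes 4 were called higher and none lower, 4 of 27 against 20.1% of all genes. They were COTL1, which binds F-actin (24 against 5.69), VASP, which promotes actin polymerisation (8.61 against 1.88), the calponin CNN2 (6.07 against 0.492) and GSN (gelsolin). GSN, which FAPs express, fell from 19.1 to 1.31 without the 13 cells, below the 2.37 of monocytes/macrophages. In the 38 cells without other markers 7 of 24 considered genes of this list were called higher, where 27.2% of all genes were. The glycolysis list had 2 of 15 considered genes called higher, under the 20.1% of all genes. They were PFKFB3 (1.52 against 0.294) and PFKFB4 (1.01 against 0.124, and 15.9-fold with too few UMIs for a call in the 38 cells), isoenzymes that raise glycolytic flux through fructose 2,6-bisphosphate. The early response list, genes that rise within minutes during tissue digestion, had 3 of 25 called higher and 2 lower, beside 20.1% and 9.48%. The growth inhibitors BTG1 (42.2 against 10.3) and BTG2 (7.8 against 0.806) and the phosphatase DUSP2 (39.1 against 7.35) were higher in 7 of 7 donors, and FOSB (1.72 against 7.81) and NR4A2 were lower. FOS stood at 31.7 against 28.7 and JUNB at 33.7 against 27.9. The summed list stood at 418 against 307, but it was lower in neutrophils in 3 of the 7 donors, namely 1 (188 against 215), 7 (253 against 322) and 10 (300.3 against 321). Whether digestion raised any of these genes was not tested, since no undigested tissue was measured.

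**Figure D4:**
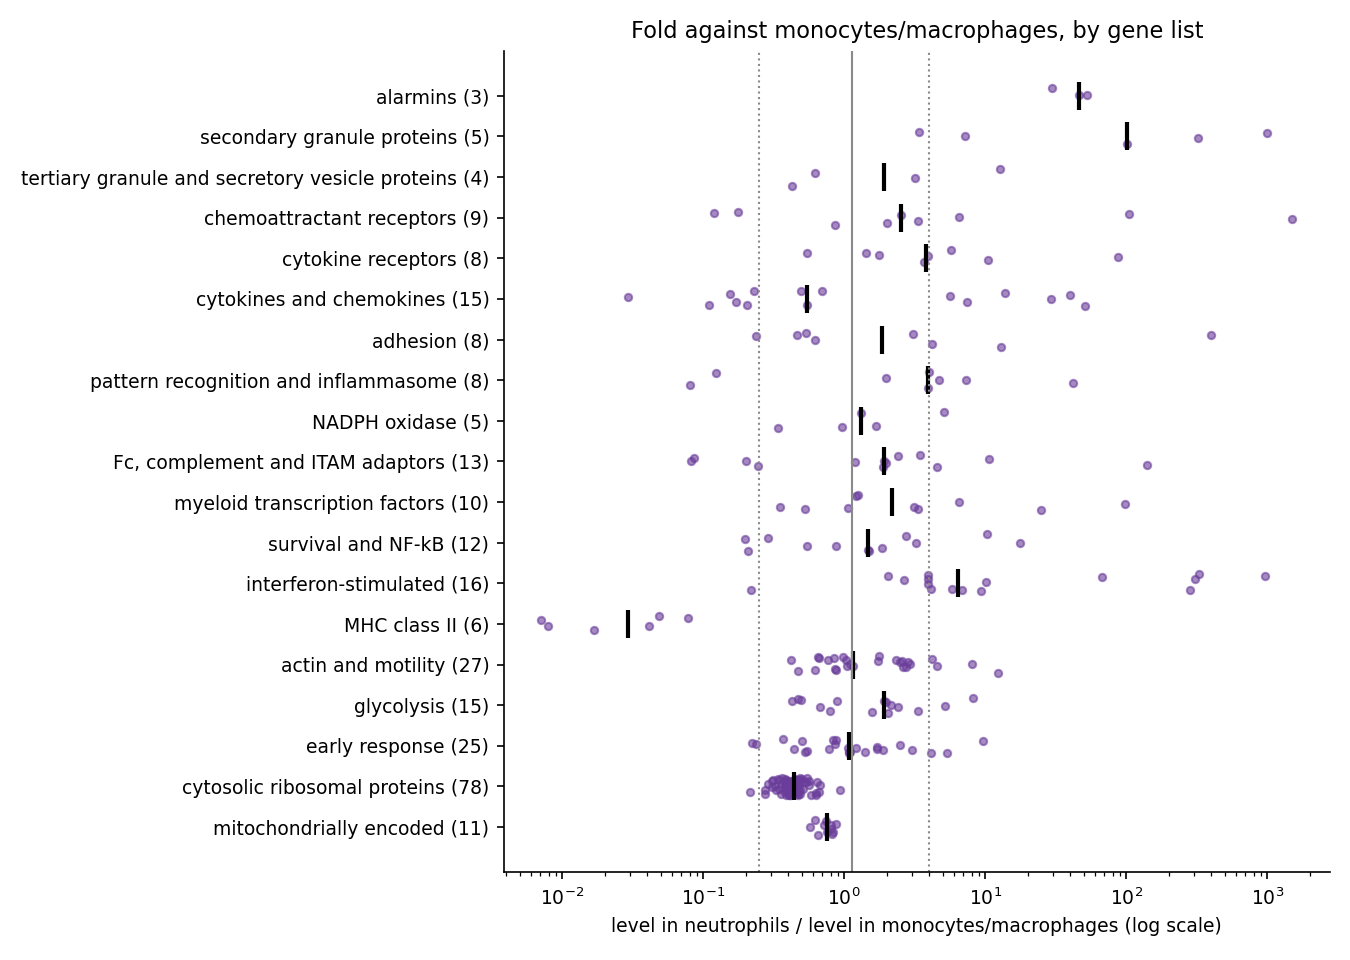
Ratio of the pooled level in neutrophils to that in monocytes/macrophages, on a log axis, for the considered genes of 19 lists (number of genes in brackets). Points are genes, a gene with no UMI in a cell type being set at 3 counts there, black ticks are medians, the grey line marks the median of all 2100 considered genes at 1.13 and dotted lines mark 4-fold. Alarmins and interferon-stimulated genes lie mostly to the right, MHC class II genes to the left, and ribosomal protein genes at a median of 0.438.

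Whether neutrophils were more frequent in calves or adults was tested over donors. They were found in 9 of 10 donors. The share of a donor's cells was 1.12%, 3.13%, 0.265%, 0.655% and 1.06% in calves 2, 4, 5, 7 and 10, and 1.2%, 1.3%, 1.1%, 0.551% and 0% in adults 1, 3, 6, 8 and 9. Donor 4 stood above the rest with 23 of the 51 cells (exact 95% binomial interval 1.99 to 4.66% of its cells), and the 0 of 232 cells in donor 9 allows up to 1.58%. The means were 1.25 ± 1.11% in calves and 0.833 ± 0.55% in adults (SD, n = 5 each), a difference of 0.413 percentage points that was smaller than the spread between donors (exact permutation test, 2-sided, p = 0.563, adjusted p = 0.603 over 2 tests; smallest possible p 0.00794). Of the leukocytes, neutrophils were 10.5 ± 11.2% in calves and 6.3 ± 4.22% in adults (exact permutation test, p = 0.603, adjusted p = 0.603), with 29.5% in donor 4 and at most 11.5% in any adult. Without donor 4 the differences were -0.0577 and -0.604 points. Blood left in the tissue brings neutrophils too, and its amount in each sample was not measured.

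**Figure D5:**
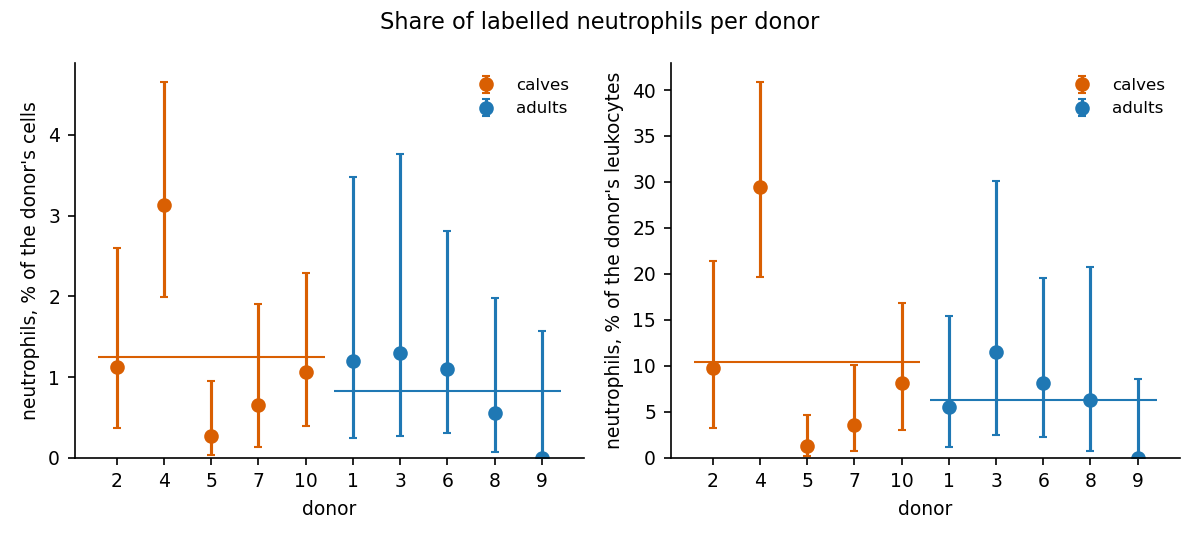
Labelled neutrophils as percent of the donor's annotated cells (left) and of its leukocytes (right), with exact 95% binomial intervals, and lines at the means of 5 calves and 5 adults. Donor 4, at 3.13% of cells, lies above the other 9 donors, and the adult and calf values otherwise overlap.

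Whether the level of interferon-stimulated genes in neutrophils went with that in other cells of the donor was tested over the 7 donors with at least 3 neutrophils. The list level in neutrophils was 32.9, 36.1, 199, 112, 46.3, 54.3 and 212 per 10000 in donors 1, 2, 3, 4, 6, 7 and 10. Of these 7, donors 3 and 10 were highest in neutrophils and also in cells that were not leukocytes, at 13.2 and 12.6 per 10000, where the others had 3.99 to 9.29. In donor 3 a single cell held 85 UMIs of the list and the other 2 cells 9 each, and in donor 10 a pair of cells held 92 and 143 and the other 4 cells 4 to 16. Donor 5, whose 2 neutrophils kept it out of the correlation, had 198 in neutrophils and 5.92 in non-leukocytes. On the log2(level + 1) scale, levels in neutrophils and in non-leukocytes gave Pearson's r = 0.815 (exact permutation p = 0.0244, adjusted p = 0.0976 over 4 correlations) and Spearman's rho = 0.786 (exact permutation p = 0.048, adjusted p = 0.192), and r = 0.931 without the 2 donors farthest from the median. This did not pass the adjusted threshold. With monocytes/macrophages r was 0.571 (exact permutation p = 0.177, adjusted p = 0.354) and rho 0.536 (exact permutation p = 0.236, adjusted p = 0.471), and r fell to 0.186 without 2 donors. Most donors gave 3 to 6 neutrophils to these values. With the 9 donors that had at least 2 neutrophils, r was 0.599 with non-leukocytes and 0.637 with monocytes/macrophages (permutation test, adjusted p = 0.183 for both). Without the 13 cells with other markers, and with the 9 donors that kept at least 2 cells, the correlation with monocytes/macrophages was 0.799 (permutation test, adjusted p = 0.0411) and that with non-leukocytes 0.585 (permutation test, adjusted p = 0.13). For the early response list r was 0.287 with monocytes/macrophages (rho -0.143, exact permutation p = 0.53 and 0.783, adjusted 0.707 and 0.783) and -0.0675 with non-leukocytes (rho -0.286, exact permutation p = 0.878 and 0.556, adjusted 0.878 and 0.741). Without the 2 farthest donors these were -0.414 and -0.737.

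Neutrophil markers were also looked for in barcodes that the annotation did not use. The matrix holds 8980 barcodes, of which demuxlet called 2817 ambiguous between donors and 728 doublets, and quality control removed 842 singlets. At least 4 of the 11 markers were found in 106 ambiguous barcodes (3.76%, exact 95% interval 3.09 to 4.53%), 23 doublets (3.16%), 17 removed singlets (2.02%) and none of the 198 without a donor call. The ambiguous barcodes with markers outnumbered the labelled cells 2.08 to 1. They held a median of 936 UMIs and 6 covered variant sites, against 1411 and 10 in labelled neutrophils with at least 4 markers. Between 1000 and 2000 UMIs 56.5% of barcodes with markers were ambiguous (39 of 69) and 51.1% of the others, and under 1000 UMIs 74.7% and 67.1%. The exact 95% intervals of the shares with markers were 44 to 68.4% and 64 to 83.6%, which include the shares of the others. Between 2000 and 4000 UMIs the order was the other way, 23.8% (5 of 21) against 32.8%, and above 4000 it was 0 of 37 against 5.67%.

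These ambiguous barcodes gave values that the annotation had not been built on, though they were picked by markers and have no donor. Leaving out 1 with other cells' markers, 105 barcodes with 110057 UMIs showed SDS at 28.8 per 10000, RUBCNL at 41.6, CD24 at 38.3, OSM at 36.6, IL1B at 40.2 and CD74 at 0.818. The labelled cells, with those that held other markers kept in, had 19.7, 27.2, 35.6, 18.1, 25.8 and 0.709. In the 38 labelled cells without other markers SDS stood at 32.8, RUBCNL at 48.3, CD24 at 58.8, OSM at 27.3 and CD74 at 0.874. Leaving the 11 markers out, 413 genes were called higher in the labelled cells than in monocytes/macrophages, and 289 of them (70%) were at least 4-fold higher in the ambiguous barcodes too. Of the 274 called in the 38 cells without other markers it was 237 (86.5%), and of 199 called lower 160 (80.4%). In the ambiguous barcodes by themselves 18.9% of 2140 considered genes were higher and 24.1% lower. Both comparisons share the monocytes/macrophages. The interferon-stimulated list took over 5% of the UMIs in 6 of 106 barcodes, up to 8.87%, with 10 barcodes between 3% and 7%. ISG15 was found in 35 of them, with up to 36 UMIs. Muscle fibre markers, which played no part in leaving barcodes out, stood at 71.7 per 10000 in the 106 ambiguous barcodes against 13.5 in labelled neutrophils with at least 4 markers. Of the 802 fibre UMIs 734 lay in 4 barcodes with 49 to 326 each, and the others stood at 6.64 with at most 6. The median percent of mitochondrial UMIs was 1.7 in the ambiguous barcodes and 1.33 in labelled neutrophils with at least 4 markers, but 17 of the 106 lay above the highest labelled cell (8.29%), up to 71.5%. Pooled, mitochondrially encoded genes stood at 633 per 10000 against 256.

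Removed singlets and annotated monocytes/macrophages with neutrophil markers were also examined. Of the 17 removed singlets 11 had a higher percent of mitochondrial UMIs than any annotated cell. A UMI of a macrophage marker was found in 11 of the 17, and in 19 of the 51 labelled cells, there mostly of CD68. The 17 held 888 to 13906 UMIs. Their MHC class II genes stood at 34.7 per 10000, against 1.54 in labelled neutrophils with at least 4 markers. All of these class II UMIs lay in removed singlets with at least 5793 UMIs. All 14 monocytes/macrophages with at least 4 neutrophil markers had a UMI of a macrophage marker, but these markers stood at 10.9 per 10000, against 202 in the whole type and 3.09 in labelled neutrophils with at least 4 markers. Their MHC class II genes stood at 83.3 against 186 in the type and their alarmins at 204 against 11.4, at a median of 9957 UMIs. Drawn down to 750 UMIs, 6 of 403 monocytes/macrophages, 76 of 2365 ambiguous barcodes and 43 of 47 labelled neutrophils kept 4 markers.

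No cell of the 4 cultured libraries carries the name. The first culture library (Timepoint 2) held, per the paper, only cells that adhered, taken at 72 h of culture without serum. In it 0 of 9591 cells carried the name, which allows a share of up to 0.0385% (exact binomial interval). Whether the time in culture or the selection for adherence removed neutrophils was not tested. In this library, with a median of 19375 UMIs over all 9591 cells, 266 cells had at least 4 of the 11 markers. Drawn down to 750 UMIs, 8 of 9591 did. Of the 266, 47 were among the 141 cultured monocytes/macrophages, in which S100A9 and S100A12 were each found in 79.4% of cells and the alarmins stood at 68.9 per 10000. The markers found were mostly IL1R2, in 63.4% of all cells, and the alarmins, in up to 14.6%, while CSF3R and CXCR1 had 1 UMI each and TCN1 13 over all 9591 cells. None of the 51 neutrophil barcodes occurs in another library's matrix, and the other matrices share 24 to 43 barcodes with that of muscle.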

How the data were processed

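Cells of the muscle library were taken from the authors' cell tables, which give per barcode the donor and class by demuxlet, the percent of mitochondrial UMIs, the number of covered variant sites and the cell type. Per the labels, reads were processed with Cell Ranger 6.0.1 on genome build ARS-UCD1.2; per the paper, limits of 3 median absolute deviations on genes, UMIs and mitochondrial percent removed cells, and types were named from clusters and by transfer of labels from murine data. The deposited matrix holds raw UMI counts per gene and barcode, which were used here unchanged. The combined expression table, which holds values corrected by sctransform, was not used. Values of some list members are not reported here, although the list counts include them. Gene coordinates and sequences are not given, because no genome of this build was at hand.

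Counts were summed over cells of a type. Symbols shared by several near-identical genes, such as those of MHC class II and OAS1, leave counts uncertain. A gene with 0 UMIs was set at 3 counts in folds. Cells drawn down to 750 UMIs (the largest step that kept 90% of neutrophils) lost 4 neutrophils. Correlations used donors with at least 3 neutrophils. P-values come from permutation of donors (n = 10, exact) or pairings, adjusted by Benjamini-Hochberg. Pairings were permuted exactly for up to 7 donors, and drawn at random where a correlation used more. Named genes are list members with at least 10 UMIs in neutrophils (members with fewer that are named were chosen after their values were seen), and the 15 largest folds per direction and comparison among genes on that side in all 7 donors. The members and the 21 gene lists were chosen with earlier results of these data known. The fold calls were also run on simulated pooled counts with known folds. Those counts had counting error only, so they cannot show how the calls behave with spread between cells or donors. Tools were Python 3.11.15, numpy 2.4.6, scipy 1.17.1 and, for the TMM factor, edgeR 4.0.16. Alternatives changed the filter, the scale, the weighting, the donors and the marker rule; leaving out cells with other cells' markers was chosen after seeing the data.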

Additional observations from a re-analysis of the deposited data

Results flagged for a closer look

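The signal outside the annotated cells was that of the neutrophil markers. At least 4 of 11 markers were found in 106 ambiguous barcodes, 23 doublets and 17 removed singlets, none of which entered the annotation. Among annotated cells they were found in 49 of 51 labelled neutrophils, 14 of 403 monocytes/macrophages, 1 of 188 lymphocytes and 0 of 3753 cells that were not leukocytes. The ambiguous barcodes outnumbered the 51 labelled cells, have no donor and entered no test. The doublets held 56.3 per 10000 of the 16 markers of FAPs, SCs, endothelium and smooth muscle, the ambiguous barcodes 2.95 and the removed singlets 2.34. Muscle fibre markers stood at 3.7 in the doublets, 71.7 in the ambiguous barcodes, most of them in 4 barcodes, and 1.53 in the removed singlets. MHC class II genes stood at 19.1, 1.7 and 34.7 in the same order.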

How the results depend on the processing

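Of the alternatives, 64 values kept their direction and their side of the threshold (or, for counts, stayed within 1.5 times), while 17 moved, 5 reversed and 1 passed a threshold it had not. No test over donors passed its threshold in the main settings, so none could lose it. The counts of genes at least 4-fold apart followed the filter and the weighting. With at least 20 expected UMIs 244 genes were higher and 125 lower than in monocytes/macrophages, and 230 and 38 against all other cells. Without a filter for low counts these were 1813, 399, 999 and 363. With cells weighted equally the lower genes rose to 373 and 504, and what raised them was not tested. Cells drawn down to 750 UMIs left 216 genes higher and 150 lower than in monocytes/macrophages, of 811 considered. Against all other cells they left 246 higher and 164 lower of 828, with 27 of the lower genes among the 121 of the main setting. The TMM factor gave 331 lower genes against monocytes/macrophages (and 362 higher), and a scale without ribosomal and mitochondrial genes 214 lower against all other cells. Leaving out donor 4 gave 120 and 52 lower genes, of 1238 and 1217 considered. Without the 13 cells with other cells' markers, an alternative chosen after seeing the data, 330 genes were lower than in all other cells, 32 of them among the 121.

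The difference between calves and adults in the share of cells ran from -0.0577 to 0.658 percentage points when donors were left out in turn, and in the share of leukocytes from -0.604 to 6.44. Without donor 4 both turned negative. The difference of medians of the share of cells was -0.0449. The early response correlation with non-leukocytes was 0.0594 with every gene at equal weight, and that with monocytes/macrophages -0.414 without 2 donors. The interferon-stimulated correlation with monocytes/macrophages passed the threshold only where 2 choices changed at once, without the cells with other markers and with the 9 donors that kept at least 2 cells (r = 0.799, permutation test, adjusted p = 0.0411), and over all its alternatives r ran from 0.186 to 0.805 and the adjusted p from 0.0411 to 0.75. Donors with at least 5 neutrophils were too few for a correlation. Barcodes without the label with 4 markers were 103 after drawing down, against 161. No paired analysis was possible because the only replicate numbers in the labels, those of runs, were taken to mark repeat sequencing of 1 library. The labels do not state what a run is. The muscle library, which holds all donors tested, has run 1 only, and the calves and adults are different animals. Donors do pair the cell types. The correlations use this pairing, and folds between types were not tested because the types were named from the same expression values. Depth limits the gene values: 3 UMIs in the 51 cells correspond to 0.304 per 10000, which bounds a gene with no UMI.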
